A study of Mus musculus with 12 samples.

Results

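The 38 genes described here encode the steps that take glucose from the medium to pyruvate and lactate, the gate into the mitochondrion and the pentose phosphate pathway, with 3 regulators. They were chosen by name, with earlier results of these data known, and the rule itself uses no values. A probe set is a group of short probes meant to read transcripts of 1 gene, and some can match further transcripts. A gene is a member if the array holds a probe set annotated with that single gene symbol. Of the 38, 34 had at least 1 such probe set and are measured here, by 72 probe sets of 45037. Gpi1, Eno1, G6pdx and Gapdh had none and are not analysed here. Where a gene had several probe sets, the brightest on average stood for it, which gave 34 of 18193 genes tested.

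RNA of sorted mouse B cells was hybridised to 12 Affymetrix arrays, 3 for each of 4 groups. All cells came from female C57BL/6 mice, with no added allele or agent, and were not cultured. The spleens of mice older than 15 months gave follicular B cells (FO) and age-associated B cells (ABC). B1 cells came from the peritoneal cavity, 1 group from mice older than 15 months (old B1) and 1 from mice of 8 weeks (young B1). The titles call them B1a and the cell type field B1. Sort markers are not named in the labels. Nothing says that replicates came from separate mice, pools or sorts, so p-values here reflect no more than the spread among these arrays, which may be technical. Wherever B1 cells are set against splenic cells, cell type and organ differ together.

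Glycolysis splits glucose into pyruvate in the cytosol and yields ATP without oxygen. Pyruvate then becomes lactate and leaves the cell, or enters the mitochondrion through pyruvate dehydrogenase, which the Pdk kinases switch off. The pentose phosphate pathway branches off after the first step and makes NADPH and the ribose of nucleotides. B cells are known to raise glucose uptake and glycolysis when they are activated, while resting follicular cells run these routes at a low rate. HIF-1, the oxygen-regulated transcription factor whose alpha subunit Hif1a encodes, and Myc are known to switch on many of these genes.

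The values are log2 intensities, so 1 unit is a 2-fold difference, and ± gives the standard error of a difference in the limma fit over all genes (3 arrays per group). A gene is called at an adjusted p under 0.05 over all 18193 genes. Intensity depends on the probes, so levels are compared between groups for 1 gene and never between genes. In bulk RNA, fewer cells of a type and less RNA per cell cannot be told apart. Across the arrays the 75th percentile of intensity was 346 on old B1 replicate 3, 378 on old FO replicate 2 and 400.1 to 412 on the other 10. Old B1 replicate 3 also had the lowest limma array weight (0.102) and a summed intensity of 13 proliferation markers of 26769, against 9149 to 15807 on the other 11 arrays. Of 10 B cell markers, 9 were measured, and their summed intensity was 59114 to 63375 on the 6 splenic arrays and 49702 to 52285 on the 6 B1 arrays. Of the 9, 1 was lower in ABC than in FO, 3 were higher in ABC than in old B1, and 1 was higher and 4 lower in old B1 than in FO. Several known features of the labelled cells were present. The mean log2 intensity of Tbx21, a factor that marks ABC, was 11.67 in ABC and 8.50 in FO, and that of Cr2, or CD21, was 12.26 in FO and 6.77 in old B1. Cd5, a marker of B1a cells, was at 8.03 in old B1, 8.70 in young B1, 7.34 in ABC and 6.22 in FO. Spn, or CD43, another marker of B1 cells, was at 10.36 in old B1 and 8.85 in FO but highest in ABC, at 11.89.

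Over the 4 comparisons 20 members were never called and 14 were: 2 of 3 glucose carriers, 3 of 3 hexokinases, 3 of 6 genes of upper glycolysis, 1 of 5 of lower glycolysis, 2 of 4 of lactate handling, 1 of 5 at the pyruvate dehydrogenase gate, 1 of 5 of the pentose phosphate pathway and 1 of 3 regulators. The share of all genes called in at least 1 comparison was not counted, so these counts by step have no background beside them. Between ABC and FO cells, 8 of 34 members were called (23.5%). Of these, 5 were higher in ABC (Hk2, Hk3, Pfkp, Tpi1, Slc16a3) and 3 lower (Slc2a3, Slc16a1, Pdk1). The share of all genes called in that comparison was 9.96%, 7.12% higher and 2.84% lower. Between ABC and old B1 cells 7 were called (20.6%, against 12.8% of all genes), 3 higher (Slc2a6, Pfkp, Taldo1) and 4 lower (Tpi1, Eno3, Slc16a1, Pfkfb3). The shares of all genes were 7.4% higher and 5.43% lower. Between old B1 and FO cells 8 were called (23.5%, against 16.4% of all genes), 4 higher in B1 (Hk1, Tpi1, Slc16a3, Pfkfb3) and 4 lower (Slc2a3, Pfkp, Aldoc, Taldo1), where the shares of all genes were 8.4% and 8.02%. Between old and young B1 cells 0 were called, against 0.291% of all genes.

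All 34 members reached the intensity of the median probe set in their highest group. Among the 11226 genes that did so, the called shares were 15% between ABC and FO, 19.3% between ABC and old B1 and 25% between old B1 and FO, so that the members' shares in the last 2 lay near that of other bright genes. Between old and young B1 the share was 0.436%. Of the called members 3 differed at least 2-fold between ABC and FO (6.05% of all genes did so), 2 between ABC and old B1 (6.93%) and 3 between old B1 and FO (8.46%). The arrays of the 2 groups did not overlap for 14 members between ABC and FO (41.2%, against 28.8% of all genes), 12 between ABC and old B1 (35.3%, against 28.8%) and 12 between old B1 and FO (35.3%, against 28.9%). The median difference of the members was 0.13 between ABC and FO (all genes -0.03), -0.04 between ABC and old B1 (0.02) and 0.05 between old B1 and FO (-0.04). The 3 comparisons of old cells share arrays pairwise and are not independent of each other. Of the called members 7 were called once, 5 in 2 comparisons and 2 in 3 (Pfkp and Tpi1).

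The number of calls depended on which arrays were fitted. Leaving out 1 array gave 3 to 11 calls between ABC and FO and 3 to 7 between ABC and old B1. Between old B1 and FO it gave 3 to 11. The share of all genes called was not counted in these smaller fits, nor in the other fits named below. In place of 8, between ABC and FO 4 members were called without ABC replicate 1, 5 without ABC replicate 2, 4 without ABC replicate 3, 3 without FO replicate 1, 5 without FO replicate 2 and 4 without FO replicate 3. In place of 7, between ABC and old B1 leaving out ABC replicate 2 gave 3 calls, and leaving out ABC replicate 3, old B1 replicate 1 or young B1 replicate 3 gave 4. In place of 8, between old B1 and FO 3 were called without FO replicate 1 or FO replicate 3. Without old B1 replicate 3 and FO replicate 2, the arrays that stand apart, 10, 6 and 12 were called in these 3 comparisons. Fits of the compared groups alone kept 1 call between ABC and old B1 (Pfkp) and 3 between old B1 and FO (Aldoc, Tpi1, Pfkfb3). Centring each array on its median called 5 between ABC and FO, 2 higher and 3 lower, and ended the calls of Hk2, Pfkp and Tpi1. Cyclic loess called 4 higher and 2 lower between old B1 and FO, without Slc2a3 and Aldoc, and ended the calls of Hk2 and Slc16a1 between ABC and FO. A fit with each array's 75th percentile as a term called 5 between ABC and old B1, and kept none of the 4 members called lower (Tpi1, Eno3, Slc16a1, Pfkfb3).

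The called differences kept their signs without the arrays that stand apart. Without FO replicate 2 those between ABC and FO were -1.49 for Slc2a3, 1.24 for Hk2, 1.09 for Hk3, 0.42 for Pfkp, 0.66 for Tpi1, -1.63 for Slc16a1, 1.0 for Slc16a3 and -1.49 for Pdk1, and those between old B1 and FO were -1.02 for Slc2a3, 0.48 for Hk1, -0.53 for Pfkp, -1.08 for Aldoc, 1.20 for Tpi1, 0.97 for Slc16a3, -0.53 for Taldo1 and 1.03 for Pfkfb3. Without old B1 replicate 3 those between old B1 and FO were -1.48 for Slc2a3, 0.62 for Hk1, -0.46 for Pfkp, -1.05 for Aldoc, 0.98 for Tpi1, 1.26 for Slc16a3, -0.40 for Taldo1 and 0.93 for Pfkfb3. Those between ABC and old B1 were 1.36 for Slc2a6, 0.92 for Pfkp, -0.40 for Tpi1, -0.46 for Eno3, -1.26 for Slc16a1, 0.48 for Taldo1 and -0.43 for Pfkfb3.

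**Figure D1:**
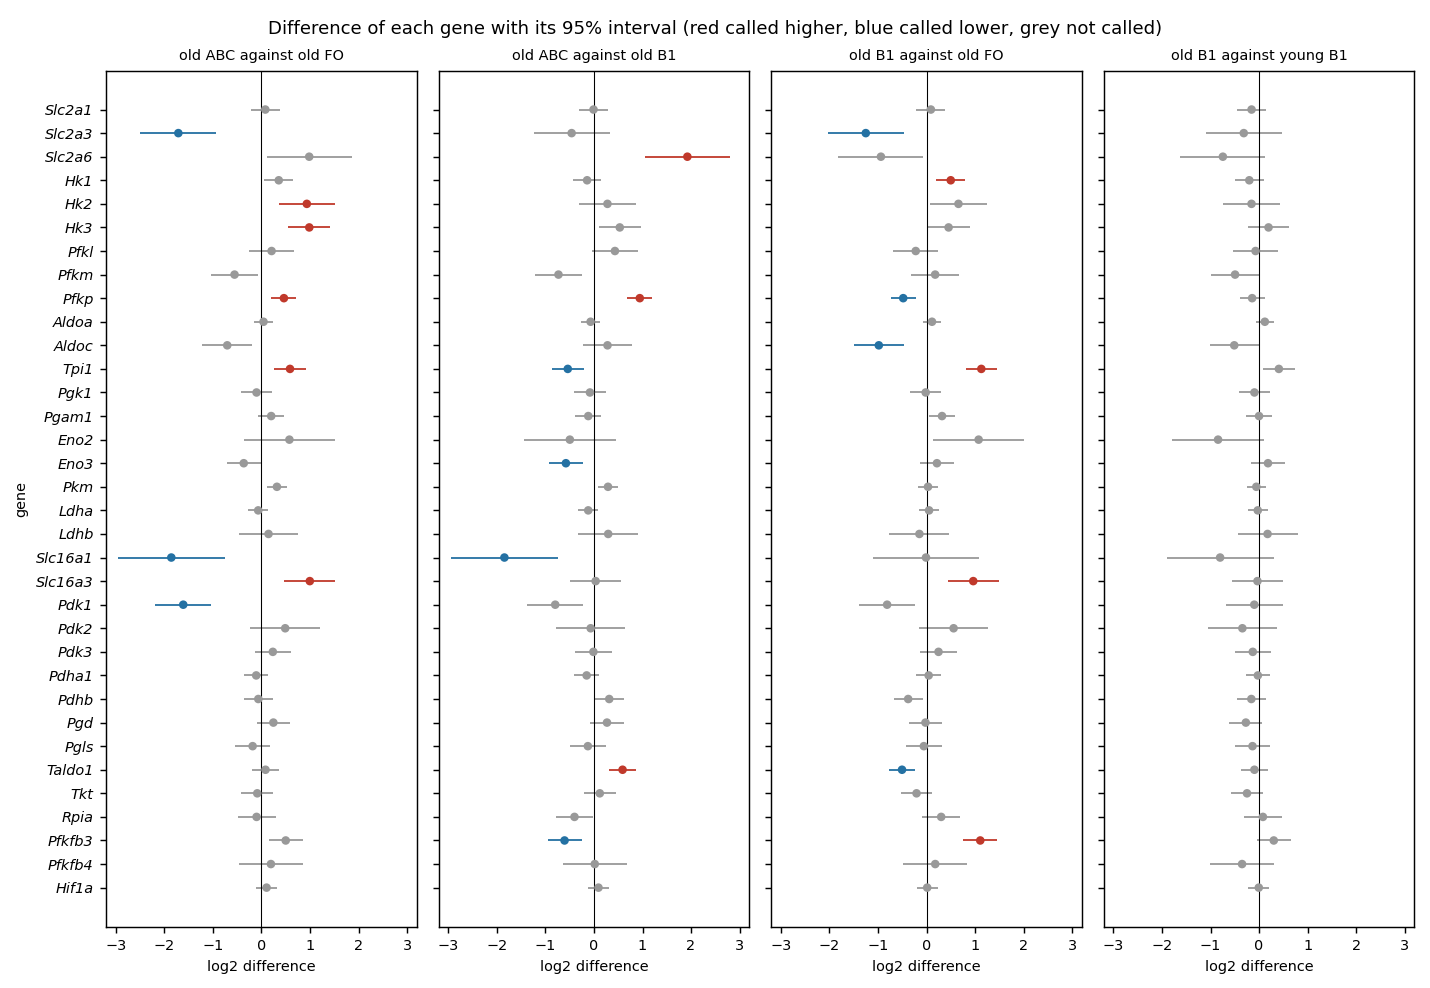
Log2 difference of each of the 34 measured genes (x axis; y axis, genes ordered by step) in the 4 comparisons, each point with the 95% interval of the limma fit. Red points were called higher and blue ones lower in the first group named. Calls number 8, 7, 8 and 0, and Slc2a3, Slc16a1 and Pdk1 lie farthest to the left between ABC and FO.

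Marker genes of myeloid cells moved with these groups, and their part in the results was not tested. Of 14 measured macrophage and monocyte markers, 11 were higher and 0 lower in ABC than in FO, and 14 were higher in old B1 than in FO. Their summed intensity was 16364 to 18326 in ABC, 1149 to 3117 in FO, 12444 to 29739 in old B1 and 15728 to 26733 in young B1, and none of the 14 lay under the median of all probe sets on every array. Of 12 neutrophil markers, 7 were higher in ABC than in FO and 10 higher than in old B1. Their sum was 20909 to 35691 in ABC, 504 to 10073 in FO, 255 to 495 in old B1 and 417 to 1571 in young B1. Of 8 mast cell markers, 3 were higher in ABC than in FO, 4 lower in ABC than in old B1 and 6 higher in old B1 than in FO. Their sum was 312 to 1016 in ABC, 160 to 169 in FO, 2011 to 4694 in old B1 and 2170 to 9888 in young B1. Between old and young B1 all 8 differences were below 0 (median -0.85) and limma called 0, with 1 at an unadjusted p under 0.05. Among old B1 arrays the macrophage sum was 12444 on replicate 3 and 28564 and 29739 on the other 2. Of 13 proliferation markers limma called 0 between any of the old groups, and 0 had an unadjusted p under 0.05. Of 6 plasma cell markers 3 were higher in ABC than in FO and 4 higher than in old B1. Of 7 dendritic cell markers the counts were 2 and 3, of 7 T cell markers 1 and 1, of 6 NK cell markers 2 and 2, and of 6 erythroid and platelet markers 1 and 2. Another erythroid and platelet marker was lower in ABC than in old B1. Of the macrophage markers 1 was higher and 1 lower there. In old B1 against FO 1 dendritic cell marker was higher and 2 lower, 1 erythroid and platelet marker was higher and 2 lower, and 1 plasma cell marker was higher and 1 lower. In old against young B1 1 dendritic cell marker was lower.

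**Figure D2:**
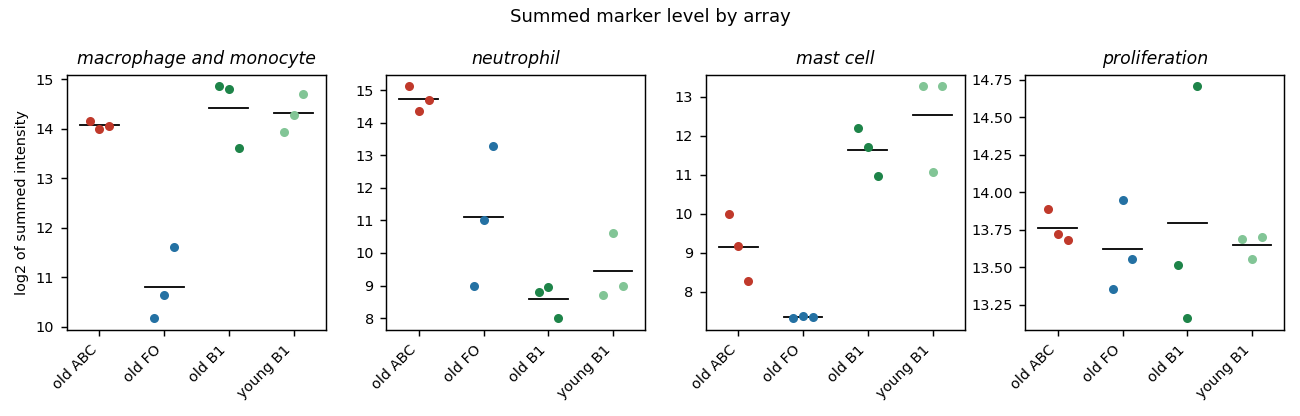
Log2 of the summed intensity of 4 marker lists (y axis) on each array (points), by group (x axis), with a line at the mean of the 3 arrays. The macrophage sum is lowest on the 3 FO arrays, the neutrophil sum is highest on the 3 ABC arrays, and old B1 replicate 3 stands above all other arrays in proliferation markers.

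Glucose enters by carriers of the Slc2a family. Slc2a1, or GLUT1, the widely used basal carrier, read 12.34, 12.27 and 12.43 on the ABC arrays, 12.22, 12.25 and 12.32 on FO, 12.47, 12.57 and 12.02 on old B1 and 12.50, 12.44 and 12.60 on young B1. The groups overlapped, and the difference between ABC and FO was 0.08 ± 0.14 (95% interval -0.22 to 0.38), so that a 2-fold difference lies outside the interval. Slc2a3, or GLUT3, a carrier of high affinity, was called in 2 comparisons. It read 9.95, 8.43 and 9.41 in ABC, 10.75, 11.43 and 10.75 in FO, 9.40, 9.58 and 10.18 in old B1 and 10.08, 9.89 and 10.15 in young B1. Every FO array lay above every other array. ABC held less of it than FO (-1.71 ± 0.35, adjusted p = 0.0108, a 3.28-fold difference), a call that was kept when any single array was left out. Old B1 held less than FO as well (-1.25 ± 0.35, adjusted p = 0.0352), but that call was lost without any 1 of ABC replicate 3, FO replicates 1, 2 and 3, old B1 replicates 1 and 2 or young B1 replicates 1, 2 and 3 (adjusted p = 0.0508 to 0.106). Its chosen probe set carries the suffix (x_at) for probes that can match more than 1 transcript. The other bright probe set gave -1.75 and -1.31 in the same comparisons, both called among all probe sets. The dim probe sets of Slc2a3 gave -0.32 and -0.40 between ABC and FO and -0.23 and -0.45 between old B1 and FO, none called.

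Slc2a6, or GLUT6, a carrier found in leukocytes, read 9.64, 10.18 and 9.57 in ABC, 8.88, 8.61 and 8.95 in FO, 8.17, 8.70 and 6.75 in old B1 and 8.69, 8.55 and 8.62 in young B1. The ABC arrays lay above all others. Only the difference from old B1 was called (1.92 ± 0.39, adjusted p = 0.00881), and it was 1.36 (adjusted p = 0.00132) without old B1 replicate 3, the lowest array. A fit of ABC and old B1 alone did not call it (adjusted p = 0.0984). Against FO the difference was 0.98 ± 0.39 (adjusted p = 0.180). So of 3 carriers, Slc2a3 was lower in ABC than in FO, Slc2a6 higher in ABC than in old B1, and Slc2a1 was not called in any comparison.

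Hexokinases trap glucose by phosphorylating it. Hk1, the housekeeping form, read 9.35, 9.36 and 9.50 in ABC, 9.05, 9.01 and 9.07 in FO, 9.77, 9.56 and 9.31 in old B1 and 9.64, 9.64 and 9.96 in young B1, with the 3 FO arrays below the other 9. Old B1 held more than FO (0.50 ± 0.13, adjusted p = 0.0268), a call lost without any 1 of FO replicates 1, 2 and 3 or old B1 replicates 1 and 2 (adjusted p = 0.0633 to 0.0874). Hk2, the inducible form, read 9.58, 8.74 and 9.19 in ABC, 7.95, 8.85 and 7.90 in FO, 8.95, 8.79 and 8.92 in old B1 and 9.08, 8.89 and 9.17 in young B1. FO replicate 2 overlapped the ABC arrays, while the other 2 FO arrays were the lowest of all. The difference between ABC and FO was called (0.93 ± 0.26, adjusted p = 0.0484) and was lost without any 1 of ABC replicates 1 and 3, FO replicates 1 and 3, old B1 replicates 1 and 2 or young B1 replicates 1, 2 and 3 (adjusted p = 0.0645 to 0.179). Without FO replicate 2 it was 1.24 (adjusted p = 0.00546).

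Hk3, the form of myeloid cells, read 7.36, 6.83 and 7.07 in ABC, 5.83, 6.30 and 6.16 in FO, 6.75, 6.57 and 6.33 in old B1 and 6.09, 6.33 and 6.65 in young B1. The ABC arrays lay above all others. ABC held more than FO (0.99 ± 0.19, adjusted p = 0.00856, 1.98-fold), and the call was kept under all 26 alternative settings. A second probe set, with the suffix x_at, gave 1.71 and was called too. That probe set was also called higher in ABC than in old B1 (1.24), where the brighter one was not (0.53 ± 0.19, adjusted p = 0.111). The neutrophil and macrophage markers were higher in ABC as well. On ABC replicates 1, 2 and 3 the neutrophil sum was 35691, 20909 and 26723, and Hk3 read 7.36, 6.83 and 7.07, the same order. On FO replicates 1, 2 and 3 the sum was 504, 2053 and 10073, and Hk3 read 5.83, 6.30 and 6.16, not the same order. A part of other cells in these values was not tested.

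Of the 3 phosphofructokinase subunits, which set the committed step, Pfkp (the platelet form) was the 1 called, and it was called in all 3 comparisons of old cells. It read 11.22, 11.30 and 11.34 in ABC, 10.81, 10.73 and 10.94 in FO, 10.33, 10.40 and 10.30 in old B1 and 10.49, 10.27 and 10.70 in young B1. From high to low the old groups ran ABC, FO and B1, with no overlap between any of them. ABC exceeded old B1 by 0.94 ± 0.12 (adjusted p = 4.3e-04), a call kept under all 26 settings. Against FO the excess was 0.46 ± 0.12 (adjusted p = 0.0292). That smaller difference was lost without any 1 of ABC replicates 1, 2 and 3 or FO replicates 1 and 2 (adjusted p = 0.0618 to 0.0944), and without both FO replicate 2 and old B1 replicate 3 (adjusted p = 0.0539). The mean of all its probe sets did not keep the call between ABC and FO either. Its dimmer probe sets gave 0.16 and -0.04 there, neither called. Old B1 lay below FO (-0.48 ± 0.12, adjusted p = 0.0166), a call lost without FO replicate 3 (adjusted p = 0.0709). Pfkl, the liver form, differed by 0.21 ± 0.21 between ABC and FO and by 0.43 ± 0.21 between ABC and old B1. Pfkm, the muscle form, read 4.81 to 5.64 in ABC and 5.69 to 6.17 in old B1, which do not overlap, but the difference was not called (-0.73 ± 0.22, adjusted p = 0.0555).

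Aldolase makes the triose phosphates and triose phosphate isomerase interconverts them. Aldoa, the main aldolase, lay within 12.80 and 13.02 on all 12 arrays. Aldoc, the brain form, read 7.85, 7.41 and 7.80 in ABC, 8.66, 8.19 and 8.33 in FO, 7.56, 7.12 and 7.54 in old B1 and 7.51, 7.86 and 8.39 in young B1. FO lay above both other old groups. Old B1 held less than FO (-0.98 ± 0.23, adjusted p = 0.0141), a call lost without FO replicate 1 (adjusted p = 0.0621), and the difference between ABC and FO was not called (-0.71 ± 0.23, adjusted p = 0.0911).

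Tpi1 gave the lowest adjusted p of the members in the comparison of old B1 with FO. It read 10.93, 10.96 and 10.75 in ABC, 10.28, 10.43 and 10.16 in FO, 11.43, 11.12 and 11.71 in old B1 and 10.92, 11.08 and 11.04 in young B1. From high to low the old groups ran B1, ABC and FO without overlap, whereas old B1 was the lowest of them for Pfkp. Old B1 held more than FO (1.13 ± 0.15, adjusted p = 4.2e-04, 2.19-fold), a call kept under all 26 settings. ABC held more than FO (0.59 ± 0.15, adjusted p = 0.0281), which was lost without any 1 of ABC replicates 1 and 2 or FO replicates 1 and 3 (adjusted p = 0.0847 to 0.110). ABC held less than old B1 (-0.54 ± 0.15, adjusted p = 0.0342), which was lost without any 1 of ABC replicates 1, 2 and 3, FO replicate 1, old B1 replicates 1 and 3 or young B1 replicates 1, 2 and 3 (adjusted p = 0.0503 to 0.111). All 3 probe sets of Tpi1 gave the same signs, 1.13 to 1.25 between old B1 and FO. The chosen one has the suffix for probes that may match further transcripts.

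**Figure D3:**
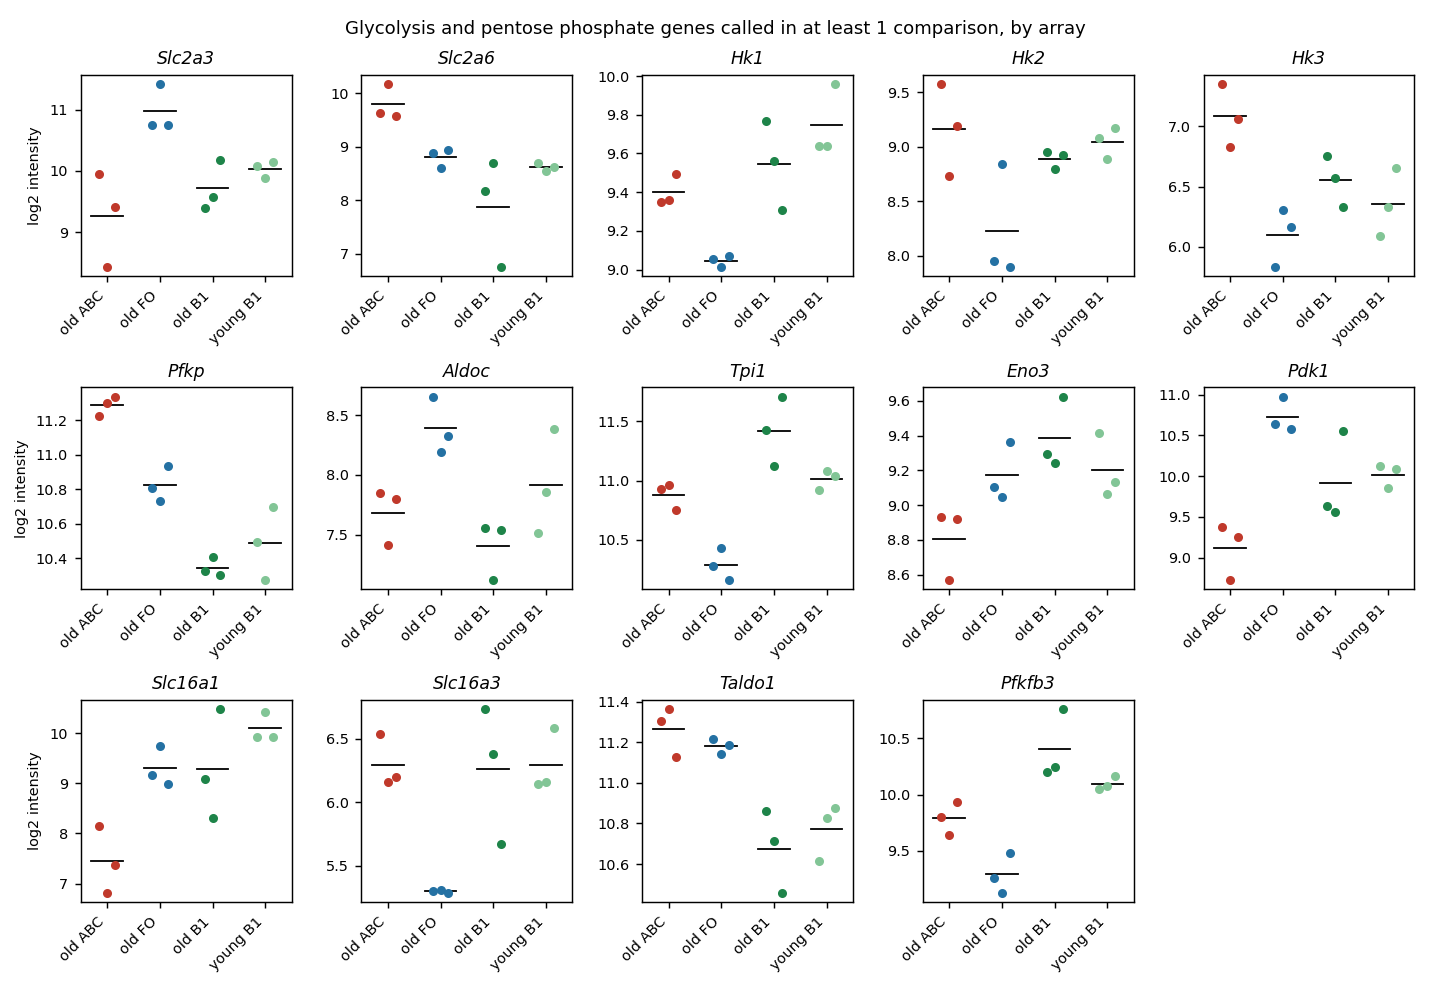
Log2 intensity (y axis, scaled for each gene) of the 14 genes called in at least 1 comparison, on each of the 12 arrays (points), by group (x axis), with a line at the mean of the 3 arrays. The 3 FO arrays lie above all others for Slc2a3 and below all others for Hk1, Tpi1 and Slc16a3, and the 3 ABC arrays lie above all others for Slc2a6, Hk3 and Pfkp.

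Of the 5 measured genes of the lower steps, from phosphoglycerate kinase to pyruvate kinase, 1 was called, in 1 comparison. Pgk1, which makes the first ATP of the pathway, differed by -0.10 ± 0.14 between ABC and FO, -0.08 ± 0.14 between ABC and old B1 and -0.02 ± 0.14 between old B1 and FO. Pgam1, phosphoglycerate mutase, lay within 10.89 and 11.54 on the 12 arrays. Eno3, the muscle enolase, read 8.93, 8.57 and 8.92 in ABC, 9.10, 9.05 and 9.36 in FO, 9.29, 9.24 and 9.62 in old B1 and 9.41, 9.06 and 9.13 in young B1. The ABC arrays were the lowest 3, and ABC held less than old B1 (-0.58 ± 0.16, adjusted p = 0.0343). That call was lost without any 1 of ABC replicates 1, 2 and 3, old B1 replicates 1 and 3 or young B1 replicate 3 (adjusted p = 0.0535 to 0.135), and without both FO replicate 2 and old B1 replicate 3. Eno2, the neuronal enolase, had the widest range of group means among the members never called (1.92, with 5.02 to 5.64 in FO and 6.70 to 7.68 in young B1). Between old B1 and FO it differed by 1.07 ± 0.43 (adjusted p = 0.122).

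Pkm, pyruvate kinase of muscle and of most dividing cells, read 11.68, 11.80 and 11.66 in ABC, 11.35, 11.43 and 11.41 in FO, 11.49, 11.33 and 11.45 in old B1 and 11.39, 11.51 and 11.54 in young B1. All 3 ABC arrays lay above the other 9. The differences from FO (0.32 ± 0.09, adjusted p = 0.0510) and from old B1 (0.29 ± 0.09, adjusted p = 0.0635) were small and just missed the threshold. Pkm has 1 probe set, so its spliced forms were not told apart.

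Lactate dehydrogenase converts pyruvate to lactate, and carriers of the Slc16a family move lactate across the membrane. Ldha read 12.10, 11.91 and 11.94 in ABC, 11.998, 12.05 and 12.11 in FO, 12.07, 12.05 and 12.19 in old B1 and 12.10, 12.10 and 12.19 in young B1. It was among the 7 members whose group means spanned less than 0.25, with -0.07 ± 0.09 between ABC and FO (95% interval -0.27 to 0.14) and -0.12 ± 0.09 between ABC and old B1 (95% interval -0.32 to 0.08). Ldhb, the form that favours the return to pyruvate, was dim (5.48 to 6.65) and was not called. The lactate carriers did differ. Slc16a1, or MCT1, read 8.14, 6.82 and 7.37 in ABC, 9.17, 9.75 and 8.98 in FO, 9.08, 8.32 and 10.47 in old B1 and 9.92, 10.42 and 9.93 in young B1, so every ABC array lay below every other array. Its range of group means, 2.65, was the widest of the 34 members. Among all probe sets, where more tests are adjusted for, the difference of this probe set between ABC and FO was not called (adjusted p = 0.0575). A dim second probe set was called lower there (-0.67) and was not called between ABC and old B1 (-0.28, adjusted p = 0.302). ABC held less than FO (-1.86 ± 0.50, adjusted p = 0.0395) and less than old B1 (-1.85 ± 0.50, adjusted p = 0.0335). The spread was wide, and the first call was lost without any 1 of ABC replicates 2 and 3, FO replicates 1, 2 and 3, old B1 replicate 1 or young B1 replicates 1, 2 and 3 (adjusted p = 0.0537 to 0.146). The second was lost without any 1 of ABC replicates 2 and 3, FO replicate 1, old B1 replicates 1 and 3 or young B1 replicates 1 and 3 (adjusted p = 0.0505 to 0.134). Without old B1 replicate 3, the highest array of the 12, it was -1.26.

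Slc16a3, or MCT4, the carrier known for export of lactate from glycolytic cells, read 6.54, 6.16 and 6.20 in ABC, 5.30, 5.31 and 5.29 in FO, 6.73, 6.38 and 5.68 in old B1 and 6.14, 6.16 and 6.58 in young B1. It was low throughout, and the 3 FO arrays were the lowest and close together. ABC held more than FO (0.996 ± 0.24, adjusted p = 0.0227) and so did old B1 (0.96 ± 0.24, adjusted p = 0.0184). The first call was lost without any 1 of ABC replicates 1 and 3 or FO replicates 1, 2 and 3 (adjusted p = 0.0543 to 0.0912). The second was lost without any 1 of FO replicates 1 and 3 or old B1 replicates 1 and 2 (adjusted p = 0.0543 to 0.0586) and was 1.26 without old B1 replicate 3. Macrophage markers moved the same way over the old groups. On old B1 replicate 3, where their sum was 12444 against 28564 and 29739, Slc16a3 read 5.68 against 6.73 and 6.38. The neutrophil, dendritic cell, mast cell, T cell and NK cell sums were also lowest there among the old B1 arrays. On FO replicates 1, 2 and 3 the macrophage sum was 1149, 1586 and 3117, and Slc16a3 read 5.30, 5.31 and 5.29. A part of other cells in these values was not tested. So Slc16a1 and Slc16a3 differed in opposite directions between ABC and FO.

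Known HIF-1 sites hold the core letters ACGTG or GCGTG. The letters were looked for on both strands in the 250 bases before the start sites that RefSeq gives (GRCm38.p6), where 37 of the 38 genes have at least 1 window. CACGTG, an E-box that Myc can bind, overlaps ACGTG and counts for both. At least 1 window held a core in 34 of the 37 genes (91.9%), against 7749 of 14452 genes on the array with a window (53.6%). The windows are rich in G and C (median 60.4% over the 52 windows of these genes, 57.6% over those of all array genes). Among windows of at least 60% G and C, 27 of 28 of these genes' windows held a core, and 65.3% of those of all array genes. A match is a description of letters and not of binding. The windows of 4 genes are shown with the cores in capitals, so that a gene with no call can be read beside 3 with calls. Ldha and Pdk1 have 2 windows each, and the first along the plus strand is shown. The second of Ldha holds 1 match to GCGTG and the second of Pdk1 holds no core. A core on the opposite strand is printed as CACGT or CACGC. The shown window of Ldha, not called in any comparison (chr7:46845554-46845803, plus strand), holds 5 matches to ACGTG over both strands, 4 of them in 2 copies of CACGTG. That of Slc16a3 (chr11:120948817-120949066, plus strand) holds 2, at 27 and 14 bases before the start. That of Tpi1 (chr6:124814159-124814408, minus strand) holds none. Among the called members with a window, Tpi1 alone had no core. The windows shown are examples, and a relation of cores to calls was not tested. The shown window of Pdk1, described next, holds 1 match to GCGTG (chr2:71872974-71873223, plus strand).
Ldha: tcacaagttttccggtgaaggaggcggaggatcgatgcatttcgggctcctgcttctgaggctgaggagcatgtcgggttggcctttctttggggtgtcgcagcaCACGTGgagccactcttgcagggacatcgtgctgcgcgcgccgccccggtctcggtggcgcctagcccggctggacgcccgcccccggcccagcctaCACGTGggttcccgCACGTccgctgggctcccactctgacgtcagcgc
Slc16a3: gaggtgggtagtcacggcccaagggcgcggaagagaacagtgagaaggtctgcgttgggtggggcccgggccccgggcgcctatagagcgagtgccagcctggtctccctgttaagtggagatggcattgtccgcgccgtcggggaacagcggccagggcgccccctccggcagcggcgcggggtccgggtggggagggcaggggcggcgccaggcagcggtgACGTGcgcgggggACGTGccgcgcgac
Tpi1: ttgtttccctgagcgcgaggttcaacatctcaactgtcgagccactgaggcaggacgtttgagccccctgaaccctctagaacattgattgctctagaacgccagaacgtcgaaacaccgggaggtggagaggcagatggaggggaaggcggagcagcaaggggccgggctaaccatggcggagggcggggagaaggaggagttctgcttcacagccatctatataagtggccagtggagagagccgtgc
Pdk1: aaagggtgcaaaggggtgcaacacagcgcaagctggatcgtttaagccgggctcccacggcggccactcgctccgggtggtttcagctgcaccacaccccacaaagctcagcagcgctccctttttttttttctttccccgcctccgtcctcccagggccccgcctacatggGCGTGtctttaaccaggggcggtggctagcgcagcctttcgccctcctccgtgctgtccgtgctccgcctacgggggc

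The Pdk kinases keep pyruvate out of the mitochondrion by switching off pyruvate dehydrogenase, whose E1 subunits Pdha1 and Pdhb encode. Pdk1 read 9.38, 8.73 and 9.26 in ABC, 10.64, 10.98 and 10.58 in FO, 9.64, 9.56 and 10.56 in old B1 and 10.12, 9.85 and 10.08 in young B1. Every FO array lay above every other array and every ABC array below every other. ABC held less than FO (-1.61 ± 0.26, adjusted p = 0.00264, 3.06-fold), the lowest adjusted p among the members in that comparison, and the call was kept under all 26 settings. All 4 probe sets of Pdk1 gave differences of -1.61 to -1.91, 3 of them called. The old B1 mean lay between, with -0.81 ± 0.26, adjusted p = 0.0605 against FO and -0.80 ± 0.26, adjusted p = 0.0765 for ABC against old B1, neither called. That middle place depends on old B1 replicate 3, which read 10.56, close to FO, against 9.64 and 9.56 on the other old B1 arrays. The differences of Pdk1 from old B1 without that array are not given here. For old B1 against FO the other 3 probe sets gave -0.95 to -1.02, with 2 called. For ABC against old B1 they gave -0.84 to -0.90, with 1 called. Pdk2 and Pdk3 were not called in any comparison, with 0.49 ± 0.32 and 0.23 ± 0.17 between ABC and FO. Pdha1 differed by -0.11 ± 0.11 and Pdhb by -0.07 ± 0.13 there. Pdhb read 10.98 to 11.44 in old B1 and 11.47 to 11.69 in FO, without overlap, and was not called (-0.38 ± 0.13, adjusted p = 0.0843). Its second, dimmer probe set gave -1.05 ± 0.25 there and was called lower among all probe sets (adjusted p = 0.0198).

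In the pentose phosphate pathway 5 of 6 genes were measured and 1 was called. Taldo1, transaldolase of the branch that returns carbon to glycolysis, read 11.31, 11.36 and 11.13 in ABC, 11.22, 11.14 and 11.19 in FO, 10.86, 10.71 and 10.46 in old B1 and 10.62, 10.82 and 10.88 in young B1. Both splenic groups lay above both peritoneal groups with no overlap. ABC exceeded old B1 (0.59 ± 0.12, adjusted p = 0.00998), a call that no single array removed. A fit of these 2 groups alone did not call it (adjusted p = 0.0860). Old B1 lay below FO (-0.51 ± 0.12, adjusted p = 0.0179), a call lost without any 1 of FO replicates 1 and 3 (adjusted p = 0.0578 to 0.0618). Its partner Tkt, transketolase, differed by 0.12 ± 0.15 and -0.21 ± 0.15 in these comparisons. Pgd, which makes the second NADPH, differed by 0.25 ± 0.15 between ABC and FO, Pgls, the lactonase, by -0.18 ± 0.16, and Rpia, ribose phosphate isomerase, by -0.10 ± 0.18.

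Pfkfb3 and Pfkfb4 set fructose 2,6-bisphosphate, the main activator of phosphofructokinase. Pfkfb3 read 9.80, 9.64 and 9.93 in ABC, 9.26, 9.13 and 9.48 in FO, 10.20, 10.25 and 10.75 in old B1 and 10.05, 10.07 and 10.17 in young B1. From high to low the old groups ran B1, ABC and FO with no overlap, as for Tpi1. Old B1 held more than FO (1.11 ± 0.16, adjusted p = 7.9e-04, 2.15-fold), a call kept under all 26 settings. ABC held less than old B1 (-0.61 ± 0.16, adjusted p = 0.0293), a call lost without any 1 of ABC replicates 1 and 2 (adjusted p = 0.0767 to 0.114). The mean of both probe sets did not keep it either (adjusted p = 0.213). Between ABC and FO the difference was not called (0.50 ± 0.16, adjusted p = 0.0817). The dimmer probe set of Pfkfb3 did not show this order, with -0.24 between old B1 and FO. Pfkfb4 differed by 0.18 ± 0.30 there. Hif1a, by its brightest probe set, had the narrowest range of group means of the 34, 0.11, with 12.04, 12.04 and 12.05 in ABC, 11.84, 12.14 and 11.83 in FO, 11.99, 11.95 and 11.92 in old B1 and 11.92, 11.99 and 11.96 in young B1. Its difference between ABC and FO was 0.11 ± 0.10 (95% interval -0.11 to 0.32). Its other 3 probe sets gave larger differences there, 0.41 ± 0.12, 0.58 ± 0.22 and, on a dim one, 0.77 ± 0.22, none of them called. Its protein level, which oxygen sets, was not measured.

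**Figure D4:**
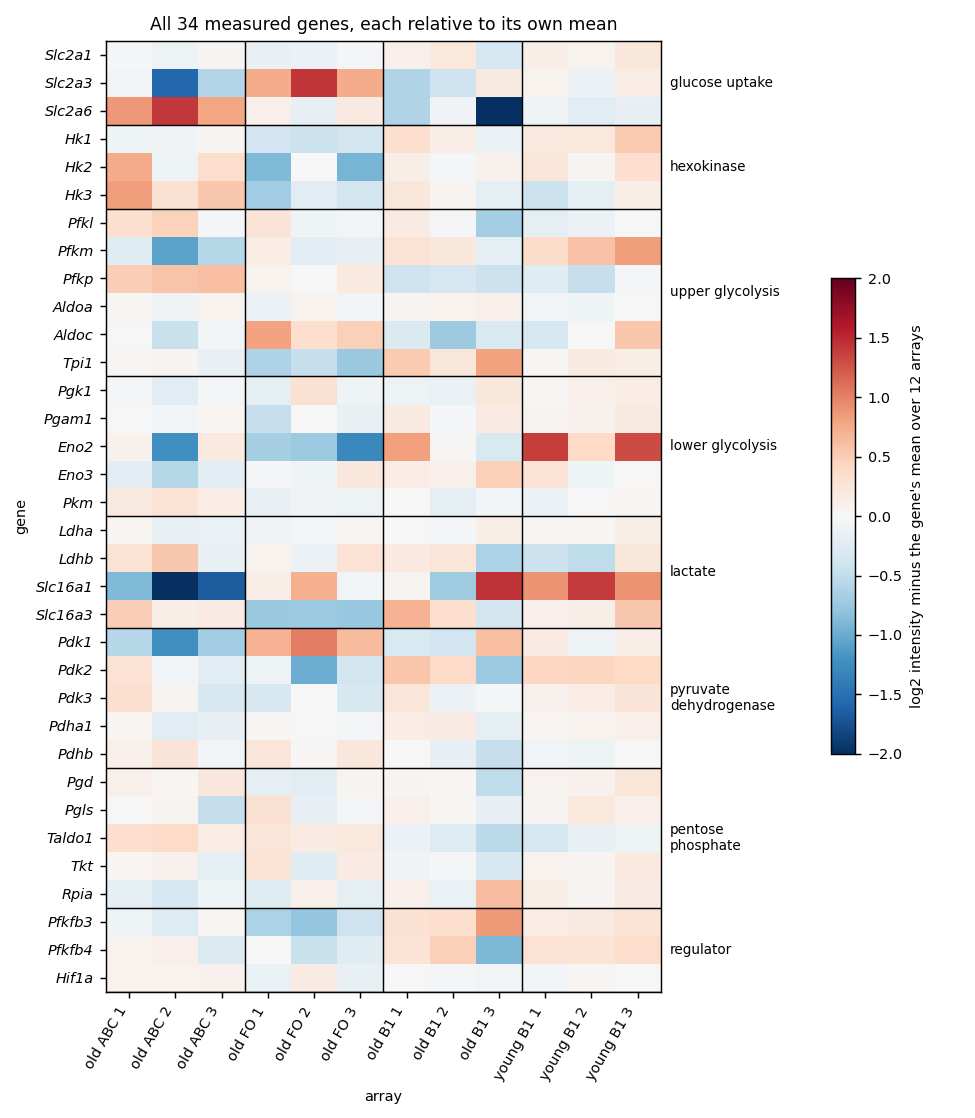
Log2 intensity of the 34 genes (y axis, grouped by step) on the 12 arrays (x axis), each minus the gene's own mean, with colours that saturate at a difference of 2. The strongest colours lie at Slc2a3, Slc2a6, Slc16a1, Pdk1 and Eno2, while Aldoa, Ldha and Hif1a are nearly white throughout.

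By the brightest probe set of each gene, the range of the 4 group means was under 0.25 for 7 of the 34 members (20.6%): Slc2a1, Aldoa, Pgk1, Ldha, Pdha1, Tkt and Hif1a. Of all genes tested 29.2% had a range that small, and the median range was 0.55 for the members and 0.39 for all genes. Over all 72 probe sets of the members, tested among the 45037, 5 were higher and 6 lower in ABC than in FO (6.13% of all probe sets called), 4 higher and 4 lower in ABC than in old B1 (8.48%), and 6 higher and 8 lower in old B1 than in FO (11.5%). Of the calls over genes, 5 were not made for the same probe set in this larger test: Hk2, Pfkp and Slc16a1 between ABC and FO, and Tpi1 and Eno3 between ABC and old B1. No gene had probe sets called in opposite directions within a comparison.

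The comparison of old with young B1 cells sets 2 ages of 1 cell type from 1 site side by side. In limma 0 of 34 members were called, 3 had an unadjusted p under 0.05 (8.82%, near the 7.57% of all genes), and array weights called 0 as well. The 3 were Tpi1 (0.41 ± 0.15, adjusted p = 0.524), Pfkm (-0.49 ± 0.22, adjusted p = 0.655) and Aldoc (-0.51 ± 0.23, adjusted p = 0.659). The groups did not overlap for 6 of the 34 members, against 13.9% of all genes. The median difference of the members was -0.11 (all genes -0.01), with 27 below 0 and 7 above it. The widest differences were those of Eno2 (-0.85 ± 0.43), Slc16a1 (-0.80 ± 0.50) and Slc2a6 (-0.75 ± 0.39). In the last 2 of these old B1 replicate 3 read 10.47 and 6.75, against 8.32 to 9.08 and 8.17 to 8.70 on the other old B1 arrays. Without that replicate the differences were -0.60 for Eno2, -1.39 for Slc16a1 (adjusted p = 0.186) and -0.18 for Slc2a6, and 20 members lay below 0 and 14 above it, with a median of -0.07. In that fit limma called 0 members as well, against 0.907% of all genes. An unadjusted p under 0.05 was reached by 2 members (5.88%, against 7.9% of all genes), Aldoc (-0.58) and Slc16a1, while Tpi1 was at 0.26 and Pfkm at -0.35.

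Other genes of the same routes were taken from a list of 48, of which 44 were measured. In ABC against FO 2 were higher and 5 lower, in ABC against old B1 5 higher and 4 lower, in old B1 against FO 4 higher and 6 lower, and in old against young B1 0 were called by limma (6 with an unadjusted p under 0.05). In the first 3 comparisons the called shares were 15.9%, 20.5% and 22.7%, against 9.96%, 12.8% and 16.4% of all genes. Among all genes at or above the median probe set in their highest group they were 15%, 19.3% and 25%. The median difference of the 44 genes was -0.07, 0.00 and -0.13 there (all genes -0.03, 0.02 and -0.04). The lowest adjusted p of the list in both comparisons with old B1 was that of H6pd, which makes NADPH from glucose 6-phosphate inside the endoplasmic reticulum. It read 9.13, 9.15 and 9.07 in ABC, 8.52, 8.28 and 8.17 in FO, 11.03, 11.43 and 11.16 in old B1 and 10.64, 10.66 and 10.72 in young B1. No 2 groups overlapped. Old B1 exceeded FO by 2.88 ± 0.12 (adjusted p = 4.9e-07) and ABC by 2.09 (ABC minus B1 -2.09 ± 0.12, adjusted p = 3.8e-06), and ABC exceeded FO (0.79 ± 0.12, adjusted p = 0.00218). None of these 3 calls was lost when a single array was left out. Prps2, which turns ribose 5-phosphate into the precursor of nucleotides, was higher in old B1 than in FO (1.43 ± 0.17, adjusted p = 2.8e-04) and than in ABC (ABC minus B1 -1.54 ± 0.17, adjusted p = 2.6e-04). Its values were 11.51, 11.31 and 11.41 in old B1, 9.94, 9.78 and 9.88 in ABC and 9.57, 10.40 and 9.95 in FO, and B1 stood clear of both.

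Pdk4, a kinase of pyruvate dehydrogenase that fasting induces, was higher in old B1 than in FO (3.29 ± 0.72, adjusted p = 0.0102) and than in ABC (ABC minus B1 -3.66 ± 0.72, adjusted p = 0.00725). It read 3.50, 3.42 and 3.41 in ABC, 2.98, 5.63 and 2.81 in FO and 5.82, 7.27 and 8.22 in old B1. All but FO replicate 2 of the splenic arrays were dim, so the size of these differences is not exact. The carrier MCT2, encoded by Slc16a7, was lower in ABC than in FO (-2.25 ± 0.41, adjusted p = 0.00527) and than in old B1 (-1.69 ± 0.41, adjusted p = 0.0200), the latter call lost without any 1 of ABC replicates 2 and 3 or old B1 replicates 1 and 2 (adjusted p = 0.0587 to 0.0664). It read 7.39, 5.57 and 6.45 in ABC, 8.89, 8.78 and 8.49 in FO and 8.39, 8.63 and 7.48 in old B1, the same order of ABC against the other groups as in Slc16a1.

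Pgam2, the muscle mutase, was higher in ABC than in FO (0.83 ± 0.18, adjusted p = 0.0134, lost without FO replicate 3, adjusted p = 0.0612) and than in old B1 (0.89 ± 0.18, adjusted p = 0.00771). Adpgk, a glucokinase that uses ADP, was lower in old B1 than in ABC (ABC minus B1 0.66 ± 0.11, adjusted p = 0.00288) and than in FO (-0.72 ± 0.11, adjusted p = 0.00125). The carrier GLUT8, encoded by Slc2a8, showed the same pattern (0.69 ± 0.15 and -0.86 ± 0.15, both called). So did Bpgm, which makes 2,3-bisphosphoglycerate (0.84 ± 0.14 and -0.55 ± 0.14, the second lost without any 1 of FO replicates 1 and 2, adjusted p = 0.0551 to 0.0698). Pgm2l1 (-1.11 ± 0.18, adjusted p = 0.00264) was lower in ABC than in FO. So were Gpd2, the glycerol phosphate shuttle enzyme of mitochondria (-0.74 ± 0.20, adjusted p = 0.0379, lost without any 1 of ABC replicates 1, 2 and 3, FO replicates 1, 2 and 3 or young B1 replicates 1, 2 and 3, adjusted p = 0.0593 to 0.134), and Pgk2, the testis form (-1.21 ± 0.21, adjusted p = 0.00437, with 8 of 12 arrays under their own 25th percentile). Pdp2, a phosphatase that opens pyruvate dehydrogenase, was lower than in FO in both ABC (-0.47 ± 0.13, adjusted p = 0.0466, lost without any 1 of ABC replicates 2 and 3, FO replicates 1, 2 and 3, old B1 replicates 1 and 2 or young B1 replicates 1, 2 and 3, adjusted p = 0.0578 to 0.162) and old B1 (-0.51 ± 0.13, adjusted p = 0.0216, lost without any 1 of FO replicates 1 and 2 or old B1 replicates 1 and 2, adjusted p = 0.0624 to 0.0680). Mpc1, a subunit of the mitochondrial pyruvate carrier, was lower in old B1 than in FO (-0.88 ± 0.23, adjusted p = 0.0248), a call lost without any 1 of FO replicates 1 and 3 or old B1 replicate 2 (adjusted p = 0.0741 to 0.0981).

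The named differences of these genes kept their calls without old B1 replicate 3. Without it those between old B1 and FO were 2.91 for H6pd, 1.44 for Prps2, 2.73 for Pdk4, -0.78 for Adpgk, -0.70 for Slc2a8, -0.41 for Bpgm, -0.61 for Pdp2 and -0.90 for Mpc1. Those between ABC and old B1 were -2.12 for H6pd, -1.54 for Prps2, -3.10 for Pdk4, -2.04 for Slc16a7, 0.76 for Pgam2, 0.71 for Adpgk, 0.53 for Slc2a8 and 0.71 for Bpgm. Without FO replicate 2 the difference of Pdk4 between old B1 and FO was 4.21. Without both arrays the calls of Bpgm between old B1 and FO (-0.30, adjusted p = 0.0781) and of Pdp2 between ABC and FO (-0.42, adjusted p = 0.0551) were lost. Fits of the compared groups alone lost the calls of Slc16a7, Pgam2 and Slc2a8 between ABC and old B1. They also lost those of Pdk4, Slc2a8, Bpgm, Pdp2 and Mpc1 between old B1 and FO, and of Pdp2 between ABC and FO.

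**Figure D5:**
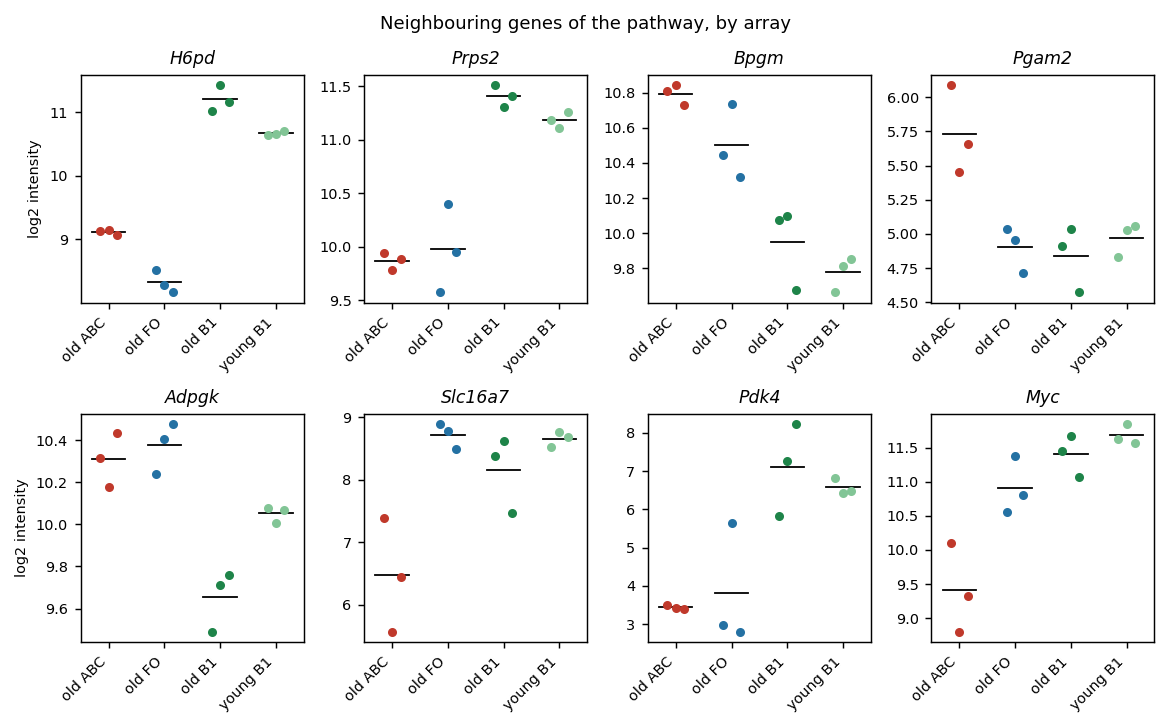
Log2 intensity (y axis, scaled for each gene) on each array (points), by group (x axis), of 7 called genes from the list of neighbouring pathway genes and of Myc, with a line at the mean of the 3 arrays. H6pd and Prps2 stand highest in the B1 groups, and Slc16a7 and Myc are lowest in ABC.

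Of 24 measured genes of the HIF pathway and Myc, 0 were higher and 2 lower in ABC than in FO, 1 was higher and 4 lower in ABC than in old B1, and 4 were higher and 2 lower in old B1 than in FO. In that order the called shares were 8.33%, 20.8% and 25%, against 9.96%, 12.8% and 16.4% of all genes. Among all genes at or above the median probe set in their highest group they were 15%, 19.3% and 25%. The median difference of the 24 genes was -0.10, -0.25 and 0.09. Between old and young B1 0 were called by limma (3 with an unadjusted p under 0.05). Myc, a driver of growth and of many glycolysis genes, read 10.10, 8.80 and 9.32 in ABC, 10.55, 11.37 and 10.81 in FO, 11.45, 11.68 and 11.07 in old B1 and 11.62, 11.84 and 11.57 in young B1. ABC held less than FO (-1.50 ± 0.31, adjusted p = 0.0110) and less than old B1 (-1.99 ± 0.31, adjusted p = 0.00185), and neither call was lost when a single array was left out. Ddit4, which restrains mTORC1 and responds to hypoxia, was lower in ABC than in FO (-0.79 ± 0.16, adjusted p = 0.0107). Bnip3, a mitophagy receptor and HIF target, was lower in old B1 than in FO (-1.86 ± 0.36, adjusted p = 0.00472), and Adm, adrenomedullin and another HIF target, was higher there (2.97 ± 0.67, adjusted p = 0.0120, lost without FO replicate 1, adjusted p = 0.0546). So HIF targets were called in both directions in that comparison.

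Mxi1, an antagonist of Myc, was higher in old B1 than in FO (1.04 ± 0.13, adjusted p = 3.8e-04) and than in ABC (ABC minus B1 -1.005 ± 0.13, adjusted p = 6.4e-04). Mlxipl, or ChREBP, a glucose-sensing factor, was near the lower limit in ABC and FO (2.25 to 2.98) and read 7.39, 6.87 and 4.06 in old B1. It was called higher there than in FO (adjusted p = 0.00859) and in ABC (adjusted p = 0.00972). Epas1, or HIF-2 alpha, read 6.81, 6.33 and 5.28 in old B1 and 4.70 to 4.86 in ABC and FO. It was higher in old B1 than in FO (1.36 ± 0.35, adjusted p = 0.0229, lost without any 1 of FO replicates 1 and 3 or old B1 replicates 1 and 2, adjusted p = 0.0652 to 0.0733) and than in ABC (ABC minus B1 -1.32 ± 0.35, adjusted p = 0.0315, lost without any 1 of ABC replicates 1, 2 and 3 or old B1 replicates 1 and 2, adjusted p = 0.0789 to 0.0962). Both Mlxipl and Epas1 were lowest on old B1 replicate 3 among the old B1 arrays. The macrophage sum was lowest there too, as were the neutrophil, dendritic cell, mast cell, T cell and NK cell sums, and a link was not tested. Higd1a, a mitochondrial HIF target, was higher in ABC than in old B1 (0.63 ± 0.13, adjusted p = 0.0108), and Car9, which was dim, was lower in old B1 than in FO (-0.89 ± 0.19, adjusted p = 0.00762). Without old B1 replicate 3 these calls were kept, and the differences between old B1 and FO were 1.01 for Mxi1, 4.43 for Mlxipl, 1.79 for Epas1, 2.43 for Adm, -1.40 for Bnip3 and -0.75 for Car9. Those between ABC and old B1 were -2.16 for Myc, -0.98 for Mxi1, -4.49 for Mlxipl, -1.75 for Epas1 and 0.56 for Higd1a. Fits of the compared groups alone lost the calls of Mlxipl, Epas1 and Higd1a between ABC and old B1. They also lost those of Mlxipl, Epas1, Bnip3 and Adm between old B1 and FO.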

How the data were processed

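The authors deposited probe set intensity on a linear scale (3.00 to 22068). RMA and affy are named per the submitters' processing notes, with no version. The order and settings of background correction, normalization and summarisation are not stated per the labels. The log2 of each intensity was fitted with limma 3.58.1 in R 4.3.3 (4 group means over 12 arrays, 8 residual degrees of freedom, prior 2.37), with Benjamini-Hochberg adjustment over 18193 genes, each by its brightest probe set with 1 symbol. No filter on dim genes was used. The number of arrays limits the precision. The members and lists were chosen with earlier results of these data known. Values by array are given for the called members and, whatever their result, for Slc2a1, Hk2, Pkm, Ldha and Hif1a. Other pathway and HIF genes are named where called, up to 8 a list and comparison by lowest p, and markers by counts and sums. No protein sequences were used here. Other normalizations, probe set rules, fits and array subsets were tried, and the procedure was tested on simulated data. Figures used matplotlib 3.10.9 in Python 3.11.15.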

Additional observations from a re-analysis of the deposited data

How the results depend on the processing

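Of 23 member differences called, 0 changed sign under any of 26 alternative settings, and 5 kept their call under all of them: Hk3 and Pdk1 between ABC and FO, Pfkp between ABC and old B1, and Tpi1 and Pfkfb3 between old B1 and FO. Counts of calls moved more. Leaving out 1 array gave 3 to 11 called members between ABC and FO, 3 to 7 between ABC and old B1, 3 to 11 between old B1 and FO and 0 to 0 between old and young B1. Array weights gave 15 between old B1 and FO. Fits of the 2 groups alone gave 1 between ABC and old B1 and 3 between old B1 and FO. Centring each array on its median gave 5 between ABC and FO (2 higher, 3 lower) and shifted the median of all genes there from -0.03 to -0.11. An adjusted p under 0.01 left 2, 3 and 2 in the 3 comparisons of old cells. The other settings stayed within 1.5 times the counts given. For the comparisons of old cells, the share of all genes called was not counted under any alternative setting. These counts therefore have no background beside them. The labels number the replicates 1 to 3 in each group and do not say whether a number marks a shared mouse or day. Over genes the deviations of same-numbered arrays from their group means correlated at -0.391 to 0.228. With 3 arrays per group, such deviations cannot show whether same-numbered samples were paired. With the replicate number as a block 6, 5, 6 and 0 members were called. The number of arrays limits the precision, and dim genes near the lower limit give differences whose size is not exact.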
